A study of Mus musculus with 9 samples.

Results

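Gene expression was compared between unstimulated macrophages from a MyD88-deficient mouse line (MyD88 KO) and unstimulated wild-type macrophages, before any lipopolysaccharide (LPS) was added. Every gene with a probe set of its own counted once, through the probe set that had the highest mean of the 9 arrays, if it reached log2 = 6 on at least 1 array. This gave 10032 genes of 12394, measured on 2 of the 9 arrays. The values are the log2 expression values that the authors deposited, and a difference is the MyD88 KO value minus the wild-type value.

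The series holds peritoneal macrophages elicited by thioglycollate, an irritant that draws white blood cells into the peritoneal cavity of a mouse. All groups share that elicitation. The 9 groups were wild type, MyD88 KO and TRIF KO, each unstimulated (0 h) or after 1 h or 4 h with 100 ng/ml LPS, with 1 array each. The unstimulated TRIF KO array served as a second reference and the 1 h and 4 h arrays as separate measurements of the same genotypes. The labels give genotype as the strain and give no age, sex, background strain, deleted exon or number of mice per array. With 1 array a group, genotype cannot be told apart from mouse, cell preparation and array, and no difference between unstimulated cells has an error or a p-value.

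MyD88 is the adaptor that most Toll-like receptors and the receptors of the interleukin-1 family use to activate NF-kB and MAP kinases. TRIF is the other main adaptor of Toll-like receptor 4, the LPS receptor, and leads to type I interferon as well as to late NF-kB activation. In resting cells NF-kB is held in the cytoplasm by inhibitors of the IkB family, several of which are themselves NF-kB target genes.

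The labels were checked first. Of the 10 macrophage markers 9 were measured, at log2 levels of 9.10 to 14.49 on the 3 unstimulated arrays, with differences of -0.25 to 0.09 between MyD88 KO and wild type. The probe set of Myd88 read 9.57 on the wild-type array, 9.30 on MyD88 KO and 9.56 on TRIF KO, a difference of -0.28. The difference was -0.39 at 1 h and -0.66 at 4 h, and a limma fit of the 1 h and 4 h arrays gave -0.53 ± 0.09 (SE, Benjamini-Hochberg adjusted p = 0.0118). The sources do not place these probes inside or outside the deletion, and a shortened transcript can still bind them, so this level does not check the label. Ticam1, the gene of TRIF, was not analysed here. The 10 measured genes nearest to Myd88 on chromosome 9 differed by -0.22 to 0.19. Xist, transcribed from the inactive X chromosome, read 10.43, 10.72 and 10.71 in wild type, MyD88 KO and TRIF KO, and the Y-linked probe sets read at most 6.23, so the 3 unstimulated arrays were alike in sex-linked transcripts.

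The unstimulated MyD88 KO and wild-type arrays were close over most genes. The median difference was 0.02 with an SD of 0.21 over genes, and 97.5% of genes lay within 0.5 of equality. In MyD88 KO 17 genes (0.169%) were at least 2-fold lower and 8 genes (0.0797%) at least 2-fold higher. At 1.5-fold, the counts were 77 lower (0.768%) and 71 higher (0.708%). TRIF KO, set against the same wild-type array, had 7 genes at least 2-fold lower and 8 at least 2-fold higher, so the number of higher genes was alike for both knockouts. Both comparisons use the 1 wild-type array, so a gene that is unusual on it appears in both, and levels on all 3 arrays are given throughout. The genes just short of the 2-fold limit were Icam1 (-0.98), Pdpn (-0.97), Tfrc (-0.96), Aoah (-0.95) and Nfkbiz (-0.94) on the lower side. On the higher side they were Ccdc80 (0.97), Gprc5b (0.96), Ccl7 (0.93), Vcl (0.90) and Gnb1 (0.89).

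**Figure D1:**
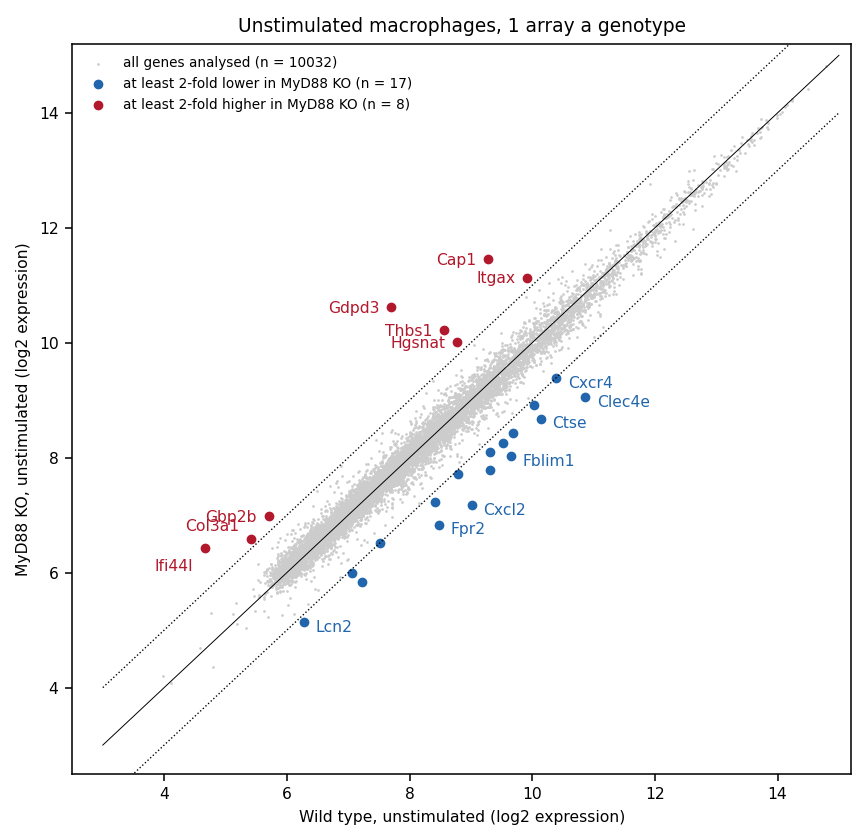
Each point is 1 of the 10032 genes, with its log2 expression in unstimulated wild type on the x axis and in unstimulated MyD88 KO on the y axis (1 array each). The solid line marks equality and the dotted lines a 2-fold difference; the 17 blue genes are at least 2-fold lower and the 8 red genes at least 2-fold higher in MyD88 KO.

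The lower genes are given by what they are known to do, starting with the chemokines Cxcl2 and Cxcl16. Cxcl2, a chemokine that attracts neutrophils, had the largest shortfall. It read 9.01 on the wild-type array, 7.18 on MyD88 KO and 9.27 on TRIF KO, a difference of -1.84 or 3.57-fold. Only the MyD88 KO array was low. Cxcl16, a membrane-bound chemokine and scavenger receptor, read 10.04, 8.91 and 9.94 in the same order, a difference of -1.12.

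The receptors formed the next set. Clec4e encodes Mincle, a C-type lectin receptor for mycobacterial glycolipid and for material from dead cells. It read 10.86 on the wild-type array, 9.05 on MyD88 KO and 10.47 on TRIF KO, a difference of -1.81. Fpr2, a formyl peptide receptor that guides cells to bacterial products, read 8.48, 6.84 and 8.80, a difference of -1.64. For Fpr2 the MyD88 KO array alone was low. For Clec4e the TRIF KO array also lay below wild type, by a smaller step (-0.39). Tlr2, the receptor for bacterial lipopeptides, read 9.31, 8.11 and 9.61 (-1.20), and its partner Tlr1 read 7.41, 6.68 and 7.46 (-0.73). Marco, a scavenger receptor that binds bacteria, read 9.52, 8.25 and 9.29 (-1.27). Gpr84, which senses medium-chain fatty acids, read 8.42, 7.22 and 8.26 (-1.20). Each of these 4 genes was lowest on the MyD88 KO array. TRIF KO was not below wild type for Tlr2 and Tlr1, and was slightly below it for Marco (-0.23) and Gpr84 (-0.165). Cd14, the co-receptor that passes LPS to Toll-like receptor 4, read 11.17, 11.04 and 11.55, a difference of -0.13.

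Acod1 encodes the enzyme that makes itaconate in activated macrophages. It read 9.31 on the wild-type array, 7.79 on MyD88 KO and 8.81 on TRIF KO, a difference of -1.52, with TRIF KO between the other arrays. Lcn2, which binds bacterial iron carriers, read 6.28, 5.14 and 5.73 (-1.14), and passed the filter through the wild-type arrays alone. Of the lower genes it was the 1 lost from the 2-fold group when values under log2 = 6 were raised to 6, with a difference of -0.28 then. Nfkbie, which encodes the inhibitor IkB-epsilon, read 7.06, 5.99 and 7.27, a difference of -1.07. Calml4, a calmodulin-like gene, read 7.23, 5.84 and 6.89 (-1.39). Nfkbie was low on the MyD88 KO array only, whereas for Calml4 the TRIF KO array also lay below wild type, by a smaller step (-0.33).

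The promoters of some of these genes are shown because NF-kB sites are the classical DNA elements downstream of MyD88. The windows are the 250 bases before the gene start in RefSeq, on the build GRCm38.p6, 5′ to 3′ on the gene's strand. Capitals mark matches to the NF-kB consensus, searched on both strands. Cxcl2, Tlr2 and Nfkbie each hold a match, and Clec4e is printed as a lower gene with no match.

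Cxcl2 (chr5:90903649-90903898, plus strand): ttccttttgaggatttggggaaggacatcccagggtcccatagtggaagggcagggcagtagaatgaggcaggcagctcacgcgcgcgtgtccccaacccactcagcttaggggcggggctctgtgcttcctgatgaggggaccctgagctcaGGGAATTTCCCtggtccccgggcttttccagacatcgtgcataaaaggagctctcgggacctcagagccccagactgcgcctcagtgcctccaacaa
Tlr2 (chr3:83841609-83841858, minus strand): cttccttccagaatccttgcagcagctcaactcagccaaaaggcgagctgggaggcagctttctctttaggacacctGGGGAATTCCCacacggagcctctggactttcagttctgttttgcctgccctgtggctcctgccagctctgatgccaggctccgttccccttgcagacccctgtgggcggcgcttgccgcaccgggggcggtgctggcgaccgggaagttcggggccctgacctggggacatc
Nfkbie (chr17:45555450-45555699, plus strand): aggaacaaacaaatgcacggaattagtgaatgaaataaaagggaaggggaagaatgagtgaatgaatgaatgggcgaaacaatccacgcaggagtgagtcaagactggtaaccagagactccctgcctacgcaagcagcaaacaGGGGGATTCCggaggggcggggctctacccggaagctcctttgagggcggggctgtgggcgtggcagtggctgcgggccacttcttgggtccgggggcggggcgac
Clec4e (chr6:123289872-123290121, minus strand): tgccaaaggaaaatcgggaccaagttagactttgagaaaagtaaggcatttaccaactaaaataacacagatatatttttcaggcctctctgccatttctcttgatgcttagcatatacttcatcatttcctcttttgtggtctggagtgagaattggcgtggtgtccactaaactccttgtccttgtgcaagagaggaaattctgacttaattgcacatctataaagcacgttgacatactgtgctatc

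The match begins 97 bases before the start of Cxcl2, 173 bases before that of Tlr2 and 106 bases before that of Nfkbie. In Cxcl2 and Tlr2 the capitals cover 2 overlapping matches. Windows were found for 14 of the 17 lower genes, and 3 of the 14 (21.4%) held the consensus. The share was 11.1% over the 8083 analysed genes with a window and 7.25% over all 32851 windows. A match is a run of letters, not a bound site, and a window without one says nothing about the factor.

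For the other lower genes the TRIF KO array was also low. Fblim1, which encodes a protein that links filamin to cell adhesions, read 9.65 on the wild-type array, 8.03 on MyD88 KO and 7.49 on TRIF KO, a difference of -1.62. C77080, a gene named only by its identifier, read 8.79, 7.71 and 7.44 (-1.08). Against the TRIF KO array, MyD88 KO was higher by 0.54 for Fblim1 and by 0.27 for C77080, so their direction depended on which array served as reference. Ctse, the aspartic protease cathepsin E, read 10.14, 8.68 and 9.03 (-1.46). A second Ctse probe set ran the other way, at 6.97, 7.67 and 8.21, so the probe sets of Ctse disagree and the mean over both was -0.38. Cd200, a ligand that restrains myeloid cells, read 9.68, 8.43 and 9.21 (-1.26). Cxcr4, the receptor of the chemokine CXCL12, read 10.39, 9.38 and 9.84 (-1.01). For Cd200 and Cxcr4 the TRIF KO array lay between the other arrays.

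Cd79b, part of the B cell antigen receptor, read 7.53 on the wild-type array, 6.51 on MyD88 KO and 6.55 on TRIF KO, a difference of -1.01. Other B cell markers moved with it. All 6 of the measured B cell markers were lower in MyD88 KO than in wild type, among them Cd79a (-0.74) and Ms4a1 (-0.44), with a list median of -0.28. The smallest shortfall was -0.015, and 2 of the 6 passed 1.5-fold. At 1 h and 4 h the list median was -0.20 and -0.25. Cd79b then differed by -0.24 and -0.06, and Ighm was higher by 0.61 and 0.14. Limma called 1 of the 6 lower, beside 2.3% of all genes. The summed unstimulated level of the 6 on the linear scale was 1223 on the wild-type array, 958 on MyD88 KO and 930 on TRIF KO. The other 7 of the 13 listed markers did not pass the filter or had no probe set of their own. Their part in the result was not tested. In RNA from a mixed population, fewer cells of a type and less RNA per cell cannot be told apart.

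Among the higher genes, some stood high in both knockouts. Gdpd3, a lysophospholipase D, had the largest difference of any gene analysed. It read 7.71 on the wild-type array, 10.63 on MyD88 KO and 11.22 on TRIF KO, a difference of 2.92 or 7.57-fold. Cap1, an actin-binding protein that turns over filaments, read 9.29, 11.46 and 11.41 (2.17). Itgax, the integrin chain CD11c, read 9.92, 11.13 and 11.35 (1.21). For these 3 genes both knockouts were high and the wild-type array stood apart. Thbs1, the matrix protein thrombospondin 1, read 8.57, 10.22 and 9.61 (1.65), with TRIF KO between the others.

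Ifi44l, Gbp2b and Hgsnat read highest in MyD88 KO, with TRIF KO near wild type. Ifi44l and Gbp2b reached log2 = 6 on MyD88 KO arrays only, so they were analysed because they are high there, and their difference was fixed in part by the filter. Ifi44l, an interferon-induced gene, read 4.66 on the wild-type array, 6.43 on MyD88 KO and 4.63 on TRIF KO, a difference of 1.77. Of its other probe sets, 1 differed by 1.25 and 1, reading 3.56 and 3.79, by 0.22. Gbp2b, an interferon-induced GTPase, read 5.71, 6.99 and 5.70 (1.28). Hgsnat, a lysosomal enzyme that acetylates heparan sulphate, read 8.78, 10.01 and 8.91 (1.23). Ifi44l and Gbp2b were near the low end of the arrays outside MyD88 KO, and raising values to a floor of 6 left differences of 0.43 and 0.99. The promoters of both interferon-induced genes are shown for the same 250 bases, with capitals for the core of the interferon-stimulated response element (GAAANNGAAA, searched on both strands).

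Gbp2b (chr3:142594597-142594846, plus strand): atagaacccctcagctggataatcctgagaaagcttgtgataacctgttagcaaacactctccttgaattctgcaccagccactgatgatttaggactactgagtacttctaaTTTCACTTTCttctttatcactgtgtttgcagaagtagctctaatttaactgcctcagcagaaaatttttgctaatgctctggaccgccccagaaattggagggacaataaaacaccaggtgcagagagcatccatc
Ifi44l (chr3:151762892-151763141, minus strand): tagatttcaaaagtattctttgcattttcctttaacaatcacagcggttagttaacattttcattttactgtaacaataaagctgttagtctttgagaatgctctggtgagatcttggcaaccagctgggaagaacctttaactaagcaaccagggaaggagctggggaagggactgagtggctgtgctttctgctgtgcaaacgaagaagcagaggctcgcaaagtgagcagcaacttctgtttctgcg

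The match of Gbp2b begins 137 bases before the gene start and lies on the opposite strand, and the Ifi44l window holds none. Of the 8 higher genes 6 had a window, of which 1 held this element and 0 held the NF-kB consensus. The element was present for 3.46% of the 8083 analysed genes with a window, and, counted by window, in 2.98% of all windows.

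Col3a1, a collagen chain of fibroblasts, read 5.42 on the wild-type array, 6.59 on MyD88 KO and 6.05 on TRIF KO, a difference of 1.17. Col3a1 stayed under log2 = 6 in wild type at all times, so it passed the filter through the knockouts, where it is high. Its other probe set, at a lower level, differed by 0.23. The remaining fibroblast markers moved with it. All 7 of the measured fibroblast markers of 9 listed were higher in MyD88 KO, with a median of 0.43, and Col1a2 (0.71) and Sparc (0.61) passed 1.5-fold. Their summed linear level was 1022 on the wild-type array, 1482 on MyD88 KO and 1351 on TRIF KO. Their part in the result was not tested.

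**Figure D2:**
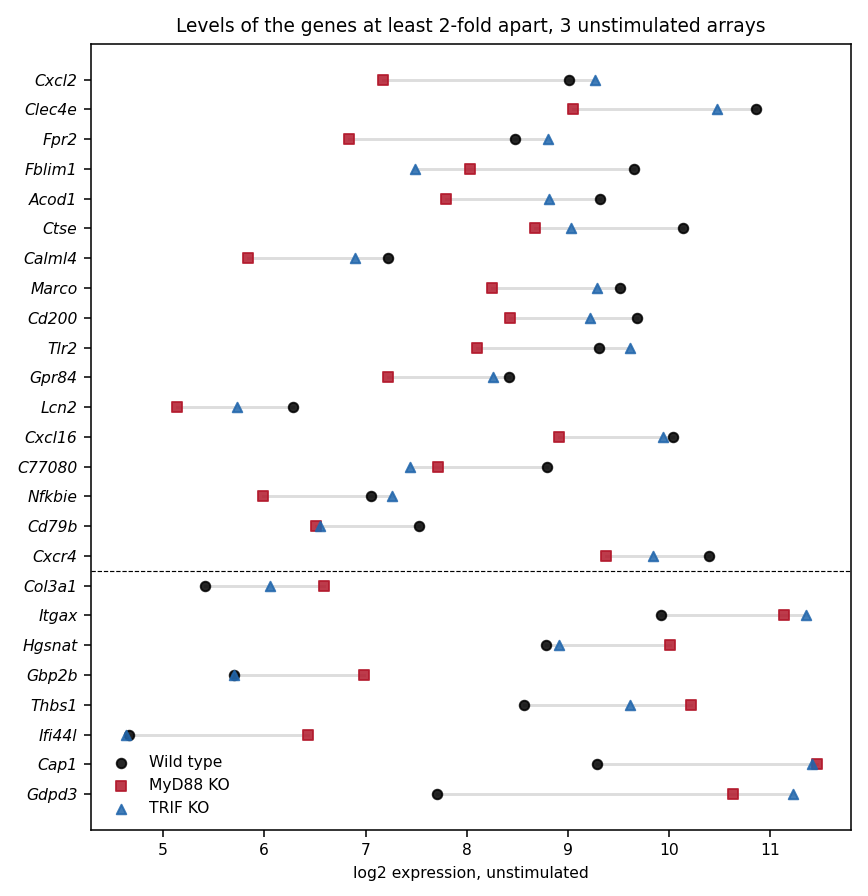
Log2 expression (x axis) of the 25 genes at least 2-fold apart on the unstimulated wild-type (circles), MyD88 KO (squares) and TRIF KO (triangles) arrays, 1 array each. For Cxcl2, Fpr2, Tlr2 and Nfkbie the MyD88 KO array alone is low, whereas for Gdpd3, Cap1 and Itgax both knockouts lie above wild type.

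Of the 17 lower genes, 10 were at least 2-fold lower than in TRIF KO as well. Of the 8 higher genes, Hgsnat was at least 2-fold higher than in TRIF KO too, as were Ifi44l and Gbp2b, which passed the filter through MyD88 KO alone. Other probe sets existed for 8 of the 25 genes, 9 in all. The sign was the same in 8 of them and the difference reached 2-fold in 6. Clec4e gave -1.66, Fblim1 -1.48, Cxcl16 -1.58, Cap1 2.01 and Thbs1 1.36 on their second probe sets.

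The 1 h and 4 h arrays gave the same genotype comparison on RNA that took no part in the unstimulated one. Their times stood as replicates of a genotype in a limma fit with time as a covariate. For LPS-responsive genes this fit also holds the lost LPS response, so it does not test the unstimulated difference. With 1 array a genotype and time, the residual mixes array noise with the change of genotype differences between 1 h and 4 h. The p-values are set against that mixture, not against a spread between arrays of the same group. The labels do not name separate mice or cultures, so the p-values cover no known spread between mice. Over all genes limma called 231 lower (2.3%) and 469 higher (4.68%) in MyD88 KO at a Benjamini-Hochberg adjusted p of 0.05. These counts moved widely: they were 1395 and 102 after centring on reference transcripts, which lowers the median difference of all genes by 0.26 at 1 h. They ranged from 91 (without MyD88 KO 4 h) to 406 (without wild-type 1 h) for lower genes when 1 array was left out, and from 89 to 558 for higher genes with the same arrays left out. Without wild-type 4 h the counts were 94 and 176.

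Most of the genes that were 2-fold apart without LPS stayed apart. All 17 lower genes were lower at 1 h and 16 were lower at 4 h, with medians of -1.26 unstimulated, -1.14 at 1 h and -1.04 at 4 h. The difference was still 2-fold for 12 genes at 1 h and for 10 at 4 h. All 8 higher genes were higher at both times, 7 of them at least 2-fold each time, with medians of 1.47, 1.33 and 1.76. Over all genes 24 were at least 2-fold lower at 1 h and 56 at 4 h. The corresponding higher counts were 12 and 21. In limma 15 of the 17 were called lower, beside 2.3% of all genes, and all 8 called higher, beside 4.68%. These counts include Lcn2, Ifi44l and Gbp2b, which passed the filter only through the genotype where they are high and so had to differ. Col3a1 is also counted, and it passed the filter only through MyD88 KO and TRIF KO, where it is high. Cd79b (adjusted p = 0.263) and Cxcr4 (adjusted p = 0.578) were the exceptions by limma with Benjamini-Hochberg adjustment.

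For Cxcl2 the shortfall widened, from -1.84 to -2.24 at 1 h and -3.49 at 4 h, where wild type read 12.36 and 12.59 and MyD88 KO 10.12 and 9.10. The limma difference over both times was -2.86 ± 0.24 (SE), with a Benjamini-Hochberg adjusted p of 0.000363. Fpr2 likewise went from -1.64 to -1.66 and -2.42. For Clec4e it narrowed, from -1.81 to -1.51 at 1 h, and at 4 h MyD88 KO read 12.07 beside 13.07 in wild type. Acod1 narrowed as well, from -1.52 and -1.59 to -0.84, with 4 h levels of 12.21 in MyD88 KO and 13.04 in wild type. Tlr2 differed by -1.20, -1.12 and -0.85. For Clec4e, Acod1 and Tlr2 the MyD88 KO level at 4 h lay above the unstimulated wild-type level. The same held for Cxcl2 (9.10 beside 9.01) and Fpr2 (8.81 beside 8.48).

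The gap changed less for some of the other genes. Nfkbie, which LPS raised in wild type from 7.06 to 9.08, differed by -1.07 at 0 h, -1.07 at 1 h and -1.06 at 4 h. Marco differed by -1.27, -0.97 and -1.31 at 0 h, 1 h and 4 h, and its limma difference was -1.14 ± 0.10 (SE, Benjamini-Hochberg adjusted p = 0.000415). Calml4 differed by -1.39, -0.97 and -1.26, and Cd200 by -1.26, -1.02 and -0.76. On the higher side Gdpd3 differed by 2.92, 2.89 and 3.20 and Cap1 by 2.17, 2.38 and 2.64. Their limma differences were 3.04 ± 0.10 (adjusted p = 1.94e-06) for Gdpd3 and 2.51 ± 0.09 (adjusted p = 3.66e-06) for Cap1, after Benjamini-Hochberg adjustment. Gbp2b widened from 1.28 to 2.62 at 4 h, and Thbs1 narrowed from 1.65 to 0.23.

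**Figure D3:**
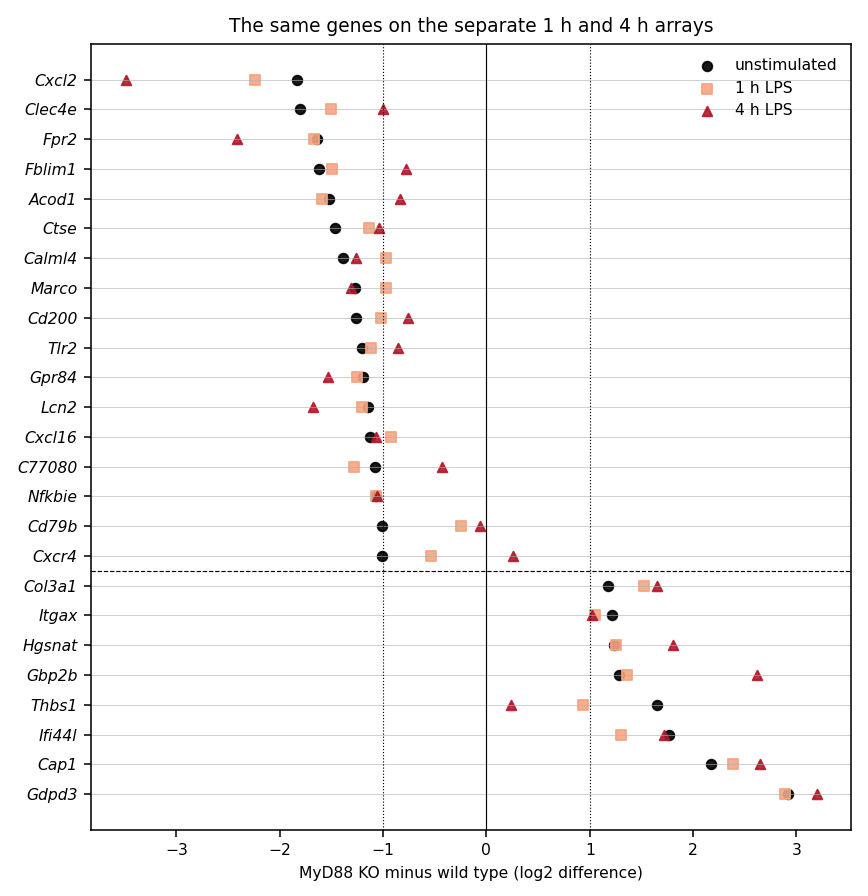
MyD88 KO minus wild type (log2, x axis) for the same 25 genes in unstimulated cells (circles), at 1 h (squares) and at 4 h of LPS (triangles), 1 array a genotype and time. All 25 keep their side of 0 at 1 h, and Cxcr4 alone crosses it at 4 h, with a difference of 0.26.

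At the 1.5-fold limit, 72 of the 77 lower genes were lower at 1 h and 70 at 4 h. Limma called 54 of the 77 lower, beside 2.3% of all genes. Of the 71 higher genes 68 and 69 were higher at the same times. Limma called 46 of the 71 higher, beside 4.68% of all genes. Both sets include genes that passed the filter only where they are high and so had to differ. Among them, Lcn2, Ncapg2, Ltb and Gimap6 passed through wild type alone, and Ifi44l, Gbp2b and Rrm2 through MyD88 KO alone. Col3a1, Aldh1a2 and Hpgd passed only through the knockouts. The medians of the lower set were -0.75, -0.54 and -0.57 at 0 h, 1 h and 4 h, and those of the higher set 0.68, 0.48 and 0.59.

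To ask whether the lower genes were those that LPS induces in cells without TRIF, responsive genes were chosen on the TRIF KO arrays. These share no array with the unstimulated comparison. Genes that LPS raised in wild type but not in TRIF KO fall outside this choice. Ifit2, for example, rose by 2.03 at 4 h in wild type and by 0.31 in TRIF KO. The chosen genes therefore do not stand for all LPS-inducible genes. In TRIF KO 41 genes (0.409%) were at least 2-fold higher at 4 h than at 0 h, a size without a test. Their median difference between unstimulated MyD88 KO and wild type was -0.59, beside 0.02 over all genes. In MyD88 KO 36 of the 41 were below wild type, whereas 45.0% of all genes were. At least 1.5-fold lower were 21 of the 41, beside 0.768% of all genes. At least 2-fold lower were 7, beside 0.169% of all genes, namely Cxcl2, Clec4e, Fpr2, Acod1, Tlr2, Gpr84 and Nfkbie. At least 1.5-fold higher were 0, beside 0.708% of all genes. Centring on reference transcripts gave a median of -0.65, with 38 below 0.

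The set was not uniform. Sod2, the mitochondrial superoxide dismutase, read 11.01 on the wild-type array, 10.10 on MyD88 KO and 10.94 on TRIF KO. Olr1, a scavenger receptor for oxidised lipoprotein, read 9.13, 8.24 and 9.15, and the B cell chemokine gene Cxcl13 read 8.81, 7.93 and 8.88. Tnf, the inflammatory cytokine, read 9.54, 8.82 and 9.66 (-0.73). Each of these 4 was low on the MyD88 KO array only. By contrast Cxcl1 (-0.08), Il1a (-0.17), Ptgs2 (0.12) and Ccl3 (0.23) were induced in TRIF KO but were close to wild type in unstimulated MyD88 KO. Cxcl1 and Ptgs2 were near the low end of all 3 unstimulated arrays, at 5.11 to 5.33 and 5.38 to 5.59, while Ccl3 read 8.73 to 9.23.

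Other sets were chosen on the same arrays. The 85 genes that TRIF KO induced between 1.5-fold and 2-fold had a median difference of -0.25, with 66 below 0. The 58 genes at least 1.5-fold lower in TRIF KO at 4 h had a median of 0.12, with 18 below 0. Genes induced at least 2-fold at 1 h numbered 14, with a median of -0.22 and 12 below 0.

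**Figure D4:**
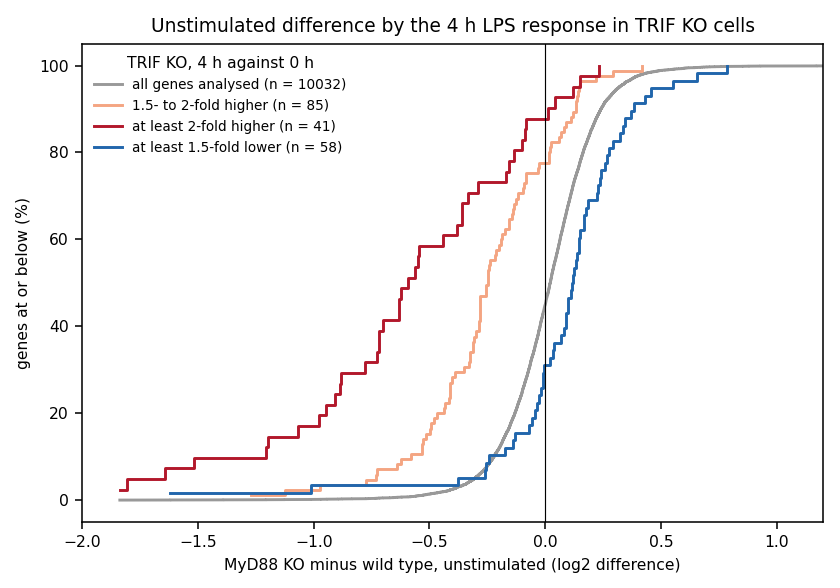
Cumulative share of genes (y axis, %) by their log2 difference between unstimulated MyD88 KO and wild type (x axis), for sets of genes chosen by their 4 h response on the TRIF KO arrays. The curve of the 41 genes induced at least 2-fold lies to the left, with a median of -0.59 beside 0.02 for all genes.

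Gene lists were described by their counts and medians, with no test of their own. The limma counts of a list come from LPS-treated arrays. For LPS-responsive genes they also hold the lost LPS response and do not test the unstimulated difference. Over all genes the median was 0.02, 45.0% lay below wild type and 55.0% above it. The shares past 1.5-fold were 0.768% lower and 0.708% higher, and those past 2-fold 0.169% lower and 0.0797% higher. Of 32 measured LPS-inducible effector genes, 27 were below wild type, 12 at least 1.5-fold and 6 at least 2-fold, and the median was -0.32. At 1 h and 4 h limma called 17 of the 32 lower, beside 2.3% of all genes, and 0 higher. After centring it called 27 lower, when 1395 of all 10032 genes were called lower. Icam1, an adhesion molecule for leukocytes, read 8.75, 7.78 and 8.76 in wild type, MyD88 KO and TRIF KO.

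Of 11 NF-kB subunits and inhibitors, 10 were below wild type with a median of -0.25, and 4 passed 1.5-fold. Those 4 were Nfkbie, Nfkbiz (-0.94), Relb (-0.72) and Nfkbia (-0.65), which are known targets of NF-kB. Nfkbia, the inhibitor IkB-alpha, read 12.62 on the wild-type array, 11.97 on MyD88 KO and 12.83 on TRIF KO. Rela, the main activating subunit, differed by -0.05. In limma 8 of the 11 were called lower, beside 2.3% of all genes, and 0 higher. For members that LPS induces, this also holds the lost LPS response. After centring 11 were called lower, when 1395 of all 10032 genes were.

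The Toll-like receptor pathway list had a median close to 0. Of 29 measured components 2 were 1.5-fold lower, Tlr2 and Tlr1, and the median was -0.03. Of 14 inflammatory cytokines Tnf alone was 1.5-fold lower, with a median of -0.04. Among 11 chemokines not induced by interferon 2 were lower, Cxcl2 and Cxcl16, and 2 were higher at 1.5-fold. The higher pair were the monocyte attractants Ccl7, at 6.49, 7.42 and 6.82 in wild type, MyD88 KO and TRIF KO, and Ccl2, at 7.72, 8.48 and 7.84. Limma called neither Ccl7 (Benjamini-Hochberg adjusted p = 0.135) nor Ccl2 (adjusted p = 0.0681). The median of these chemokines was 0.00, and -0.05 after centring, so it had no fixed direction.

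Of 37 measured interferon-stimulated genes, 31 were above wild type (55.0% of all genes were), with a median of 0.19. At 1.5-fold 2 were higher, beside 0.708% of all genes. Oas3, an antiviral sensor of double-stranded RNA, read 8.26 on the wild-type array, 9.12 on MyD88 KO and 8.28 on TRIF KO. Ifit2, which binds viral RNA, read 5.85, 6.44 and 5.46. Of the 37 genes 6 were below wild type, the lowest being Gbp2 (-0.55). At 1 h and 4 h the list median was 0.26 and 0.008. In limma 7 of the 37 were called higher (4.68% of all genes were) and 1 lower (2.3%). After centring 2 were called higher and 1 lower, when 102 and 1395 of all 10032 genes were.

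Of 30 genes of DNA replication and the cell cycle, 24 were above wild type, beside 55.0% of all genes, with a median of 0.26. At 1.5-fold 4 were higher, beside 0.708% of all genes. Rrm2, a subunit of ribonucleotide reductase, read 5.75, 6.42 and 5.81 in wild type, MyD88 KO and TRIF KO. Rrm2 reached log2 = 6 on MyD88 KO arrays only, so its difference was fixed in part by the filter. The counts at 1.5-fold and by limma include it. Mki67, a marker of dividing cells, read 6.08, 6.67 and 6.13, but at 4 h it was lower in MyD88 KO by -0.26. In limma 10 of the 30 were called higher, beside 4.68% of all genes. After centring 3 were called higher, when 102 of all 10032 genes were.

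Genes of alternative activation, the programme that interleukin-4 induces, had a median of 0.24, with 11 of 14 above wild type. Arg1, which splits arginine, read 11.92 on the wild-type array, 12.77 on MyD88 KO and 12.60 on TRIF KO (0.85). The lectin gene Mgl2 read 6.43, 7.17 and 7.02 (0.73) in the same order, and Mrc1, the mannose receptor, 9.5, 10.17 and 9.99 (0.68). For Arg1, Mgl2 and Mrc1 wild type was thus the low array. TRIF KO had a median of 0.24 for the whole list against the same wild-type array. Limma called 7 of the 14 higher, beside 4.68% of all genes. After centring it called 5 higher, when 102 of all 10032 genes were called higher. The oxidative stress list pointed the other way, with a median of -0.32 and 10 of 12 below wild type. Slc7a11, the cystine importer, differed by -0.63 and Gclm, of glutathione synthesis, by -0.58. Limma called 4 of the 12 lower, beside 2.3% of all genes, and 1 higher. After centring it called 8 lower and 1 higher, when 1395 of all 10032 genes were called lower.

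**Figure D5:**
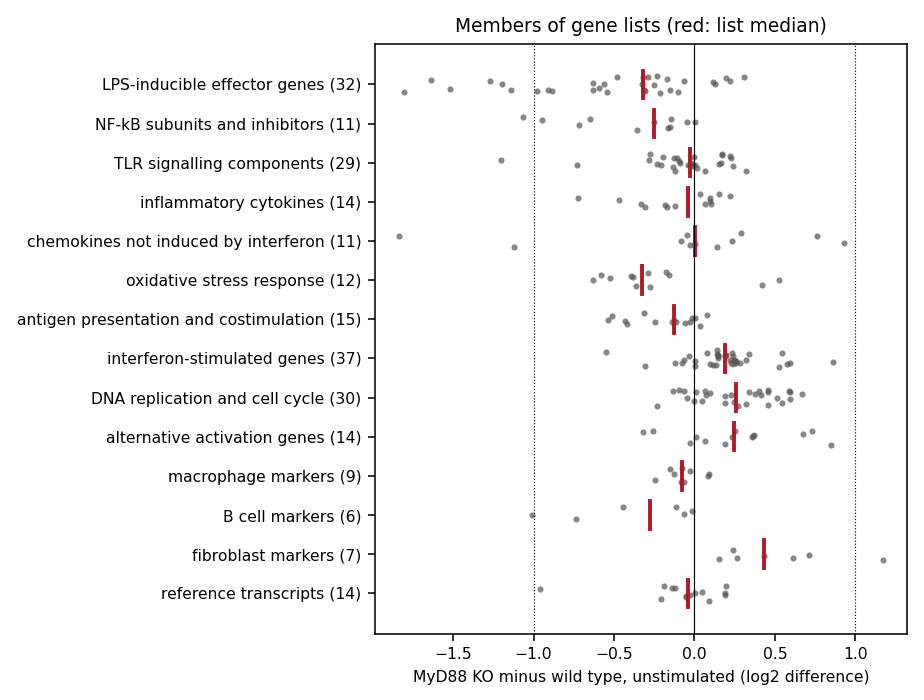
Each point is a measured member of a gene list, at its log2 difference between unstimulated MyD88 KO and wild type (x axis), with the list median in red and the number of measured members beside the list's name. LPS-inducible effector genes extend to -1.81, while fibroblast markers all lie above 0 and B cell markers all lie below it.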

How the data were processed

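Biotin-labelled RNA of 9 groups was measured on Affymetrix arrays, 1 a group. The authors deposited log2 values for 22690 probe sets, made with RMA (background correction, quantile normalization, probe summary) per the submitters' processing notes. Not given in the sources used here are its version, a genome build and whether it took all arrays jointly. Quantile normalization fixes each array's distribution, so a shift of most genes is not measurable. Array medians were 7.01 to 7.07.

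Probe sets were named from the platform annotation with symbols updated through RefSeq (GRCm38.p6): 20393 had 1 symbol, 691 several and 1606 none listed. Of those with 1 symbol 20364 were found in RefSeq. Differences between unstimulated arrays were called at 2-fold by size, with no test. The 1 h and 4 h arrays were fitted with limma 3.58.1 in R 4.3.3 (lmFit and eBayes, genotype and time, two-sided, 2 residual and 6.65 prior degrees of freedom), with Benjamini-Hochberg adjustment over 10032 genes and a threshold of 0.05. The fit was checked on simulated data with independent noise and the same genotype change at both times. That check does not cover a residual that also holds changes of genotype differences with time.

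The rule for named genes took Myd88, every gene at least 2-fold apart, up to 4 members with the largest difference from each of 28 lists, and the 5 measured genes on each side of Myd88. Genes named beyond it, among them those chosen by their TRIF KO response, were chosen after their values were seen, as was that use of the TRIF KO arrays. Members and lists were chosen with earlier results of these data known. Alternatives covered the filter, a floor, the probe set rule, centring on reference transcripts, the reference array, the fold limit, the fit and leaving out each array.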

Additional observations from a re-analysis of the deposited data

Results flagged for a closer look

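Probe sets that name no gene or several genes were left out of the comparison and were examined apart, since a signal there would be missed. Of 1433 such probe sets past the same minimum, 4 were at least 2-fold higher in unstimulated MyD88 KO and 2 at least 2-fold lower. The largest, which names no gene here, read 4.96 on the wild-type array, 7.06 on MyD88 KO and 4.86 on TRIF KO, and differed by 1.94 at 1 h and 2.34 at 4 h. A second without a gene name read 9.77, 10.77 and 10.61. A probe set shared by histone H2a genes read 8.20, 9.31 and 8.61, and 1 shared by Pald1 and Thbs1 read 7.51, 8.78 and 8.26. On the lower side, a probe set of immunoglobulin kappa genes read 9.26, 8.14 and 8.29, with differences of 0.14 and 0.13 at 1 h and 4 h, and 1 shared by Gm5424 and Ass1 read 8.15, 6.99 and 7.53. No group has more than 1 array, so no sample was compared with others of its group.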

How the results depend on the processing

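The counts of 17 lower and 8 higher genes became 77 and 71 at 1.5-fold, and 10 and 3 when the gene also had to pass 2-fold against TRIF KO. The higher count was 5 with a minimum mean of log2 = 7 and 5 with values raised to 6. Against the TRIF KO array alone the direction reversed for Fblim1 (0.54), C77080 (0.27), Gdpd3 (-0.60) and Itgax (-0.22).

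The limma counts over 1 h and 4 h, 231 lower and 469 higher, were 23 and 31 with values raised to 6, 7 and 9 with no time in the fit, and 1395 and 102 after centring. In a fit of wild type and MyD88 KO alone at all 3 times, which leaves out TRIF KO and adds the unstimulated arrays, 271 were higher. Leaving out 1 array gave 91 to 406 lower and 89 to 558 higher genes. The cause of these shifts was not tested. No paired analysis was possible because each group has 1 array and so only 1 replicate number. Low signal limits Lcn2, Ifi44l, Gbp2b and Col3a1, which fell short of 2-fold with values raised to 6.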
